A study of Drosophila melanogaster with 6 samples.

Results

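The glutathione S-transferase (GST) genes of Drosophila melanogaster were followed by class in circulating blood cells (hemocytes) that expressed Idh-R195H and in control hemocytes. Members were the genes whose probe set carried a single symbol made of Gst, the class letter D, E, O, S, T or Z and a number in the array annotation. The rule found 36 probe sets and 34 genes of 11982 genes with a single-gene probe set: 11 of the delta class (GstD), 13 of the epsilon class (GstE), 3 of the omega class (GstO), 1 of the sigma class (GstS), 4 of the theta class (GstT) and 2 of the zeta class (GstZ). The 3 Idh-R195H samples carried hml-Gal4, a driver active in hemocytes, with the green fluorescent reporter UAS-2xEGFP and the transgene UAS-Idh-R195H, whose product is the fly counterpart of a cancer-associated human IDH1 mutant. The 3 control samples carried the same driver and reporter without that transgene. Each sample held the pooled blood cells of 400 wandering third-instar larvae, kept at 29 °C until harvest on day 7, and was hybridised to 1 array; the cells were total hemocytes, with no sort for the reporter described in the labels. The comparison asks how expression in hemocytes differs once the mutant enzyme is made.

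GST enzymes join the tripeptide glutathione to reactive molecules such as lipid peroxidation products, insecticides and other electrophiles, which makes them soluble and ready for export. The delta and epsilon classes have expanded in insects, are encoded largely in gene clusters and are known for detoxification and insecticide resistance. The sigma, omega, theta and zeta classes also occur in vertebrates: omega enzymes act as thiol transferases and dehydroascorbate reductases, and zeta enzymes are maleylacetoacetate isomerases of tyrosine breakdown. In flies, transcription of several GST genes is switched on by the stress factor cnc, which Keap1 holds in check, and the reporter built from the GstD1 promoter is a standard readout of that pathway. The mutant form of IDH1 uses NADPH to make 2-hydroxyglutarate, and NADPH is also the source of the electrons that keep glutathione reduced.

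The deposited values were linear probe set intensities, scaled so that every array had the same trimmed mean. Idh (CG7176), the gene of the transgene, had intensities of 11051, 9490.4 and 9360 on the Idh-R195H arrays, against 3805, 4006 and 4293 on the control arrays, 1.30 ± 0.19 higher on the log2 scale (SE, adjusted p = 0.0319 in limma). That call was kept without control replicate 1 (adjusted p = 0.0407) and lost without any other array (adjusted p of 0.059 to 0.144). The annotation used here does not say whether that probe set matches the transgene transcript. All 12 plasmatocyte markers looked for were measured. Hml, the hemocyte gene whose regulatory region gives the driver, was at 16213, 17483 and 14685 on Idh-R195H arrays, against 22127, 14541 and 12663 on control arrays. The added hybridisation controls were dimmer on Idh-R195H arrays, with control arrays 1.89-fold brighter in the median of 18 probe sets. The ratio of 3' to 5' actin intensity, a measure of RNA quality and labelling, was 1.38 ± 0.04 on Idh-R195H arrays and 1.88 ± 0.08 on control arrays (SD, n = 3 each). The part of these differences in the results below was not tested.

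With the deposited scaling, most GST genes had negative log2 fold changes, a sign that turned for 15 of the 34 genes when arrays were scaled on the hybridisation controls, which moved the median of all probe sets to 0.835. The highest value belonged to the epsilon class and the lowest to the theta class. Of the 34 genes, 8 had a positive and 26 a negative log2 fold change (Idh-R195H minus control, on the log2(intensity + 1) scale), and the median was -0.58, against -0.11 over all 18769 probe sets. At an adjusted p below 0.05 in limma, GstE6 rose and GstE5 and GstT4 fell, which is 8.82% of the members, against 3.11% of all probe sets (1.9% higher and 1.21% lower). A change of at least 2-fold was measured upward in 4 genes (11.8%) and downward in 11 (32.4%), against 7.03% and 13.3% of all probe sets. The arrays of the 2 genotypes did not overlap for 20 genes, or 58.8%, of which 5 were higher and 15 lower; over all probe sets 28.8% did not overlap, with 12.6% higher and 16.2% lower. At an unadjusted p below 0.05 stood 19 members (55.9%), 5 higher and 14 lower, against 20.2% of all probe sets, 8.4% higher and 11.8% lower. The members are related genes measured on the same 6 arrays and are not replicates, and 8 of them had a mean intensity under 100, where 50% of all probe sets lay. In bulk samples, fewer cells that express a gene and less RNA per cell cannot be told apart.

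**Figure D1:**
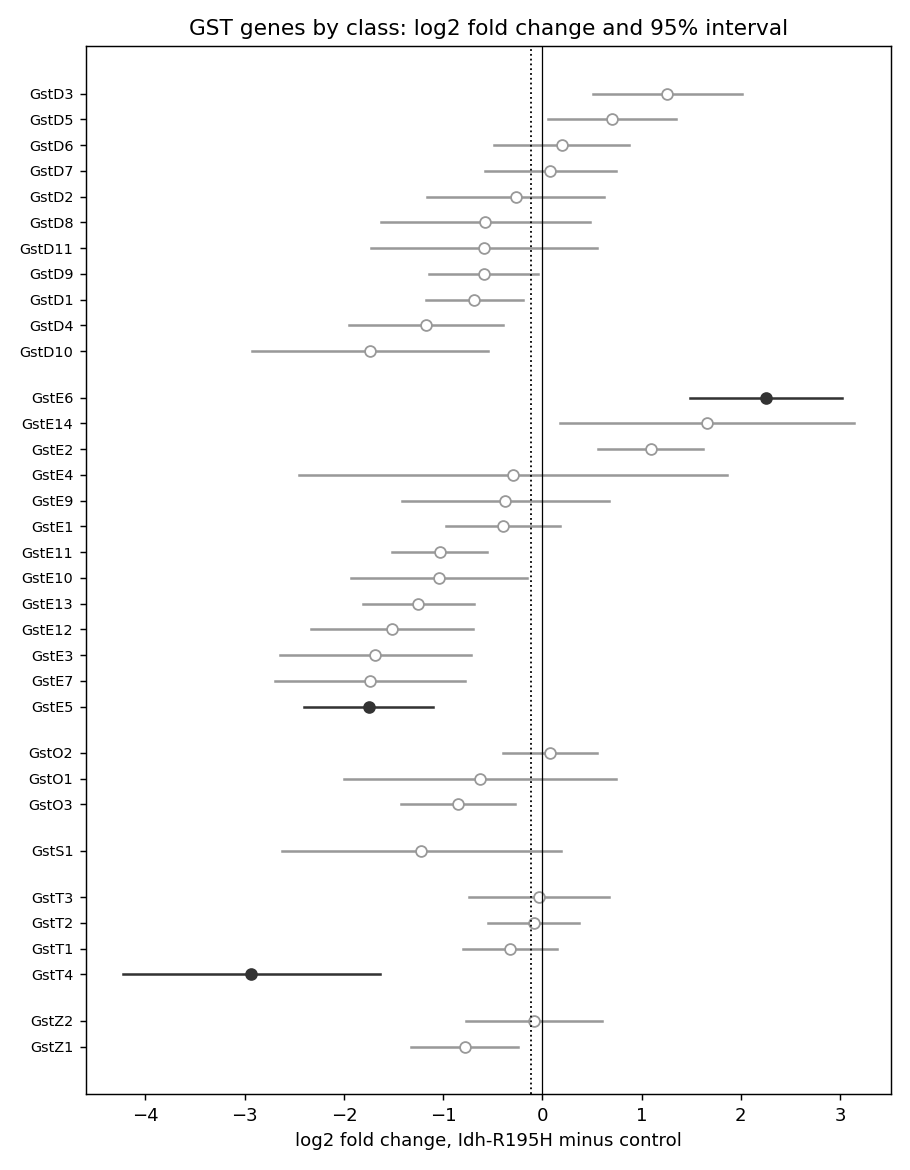
Log2 fold change (Idh-R195H minus control, horizontal axis) of the 34 GST genes, grouped by class, with 95% intervals from limma; filled dark points are the 3 genes with an adjusted p below 0.05, and the dotted line is the median of all probe sets. GstE6 lies at 2.25, GstE5 at -1.75 and GstT4 at -2.93, and the delta and epsilon classes each span positive and negative values.

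In the delta class, GstD3 had the highest and GstD10 the lowest log2 fold change, and none of the 11 genes passed the threshold. GstD3 was at intensities of 3537, 3343 and 3331 on the Idh-R195H arrays, against 1984, 978 and 1477 on the control arrays. The genotypes did not overlap, with a log2 fold change of 1.26 ± 0.30 (SE, limma adjusted p = 0.0982). Without control replicate 1 the adjusted p was 0.0492. GstD10 was at 67.5, 33.8 and 99.2 in Idh-R195H hemocytes, against 152, 186 and 309.8 in control hemocytes. The groups did not overlap, but the arrays of a genotype spread by 2.93-fold and 2.04-fold, in the same order, and the log2 fold change was -1.74 ± 0.48 (SE, adjusted p = 0.129).

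GstD4 was dim throughout, at 35.1, 29.2 and 39.1 in Idh-R195H hemocytes, against 58.0, 72.3 and 115 in control hemocytes, and its log2 fold change was -1.17 ± 0.31 (SE, adjusted p = 0.121). GstD5 went the other way, with 153, 123 and 93.7 in Idh-R195H hemocytes, against 84.9, 64.4 and 73.9 in control hemocytes, and a log2 fold change of 0.70 ± 0.26 (SE, limma adjusted p = 0.219). Neither gene overlapped between the genotypes. GstD1, the enzyme with DDT dehydrochlorinase activity and the gene behind the cnc reporter, was very bright, at 21375, 20084 and 20844 in Idh-R195H hemocytes and 38446, 31215 and 31043 in control hemocytes. Every Idh-R195H array lay below every control array, by a log2 fold change of -0.69 ± 0.20 (SE, limma adjusted p = 0.14). The top of the intensity range was itself lower on Idh-R195H arrays, with largest intensities of 37578 to 40283, against 52843 to 56235 on control arrays, and the 2 cannot be told apart for a probe set this bright; the log2 fold change of GstD1 was -0.10 after quantile normalization, which equalises that range (adjusted p = 0.882), and 0.28 after scaling on the hybridisation controls. The other 6 delta genes, GstD2, GstD6, GstD7, GstD8, GstD9 and GstD11, lay between log2 fold changes of -0.59 and 0.19 with adjusted p of at least 0.222. Of these, GstD9 alone did not overlap between the genotypes.

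**Figure D2:**
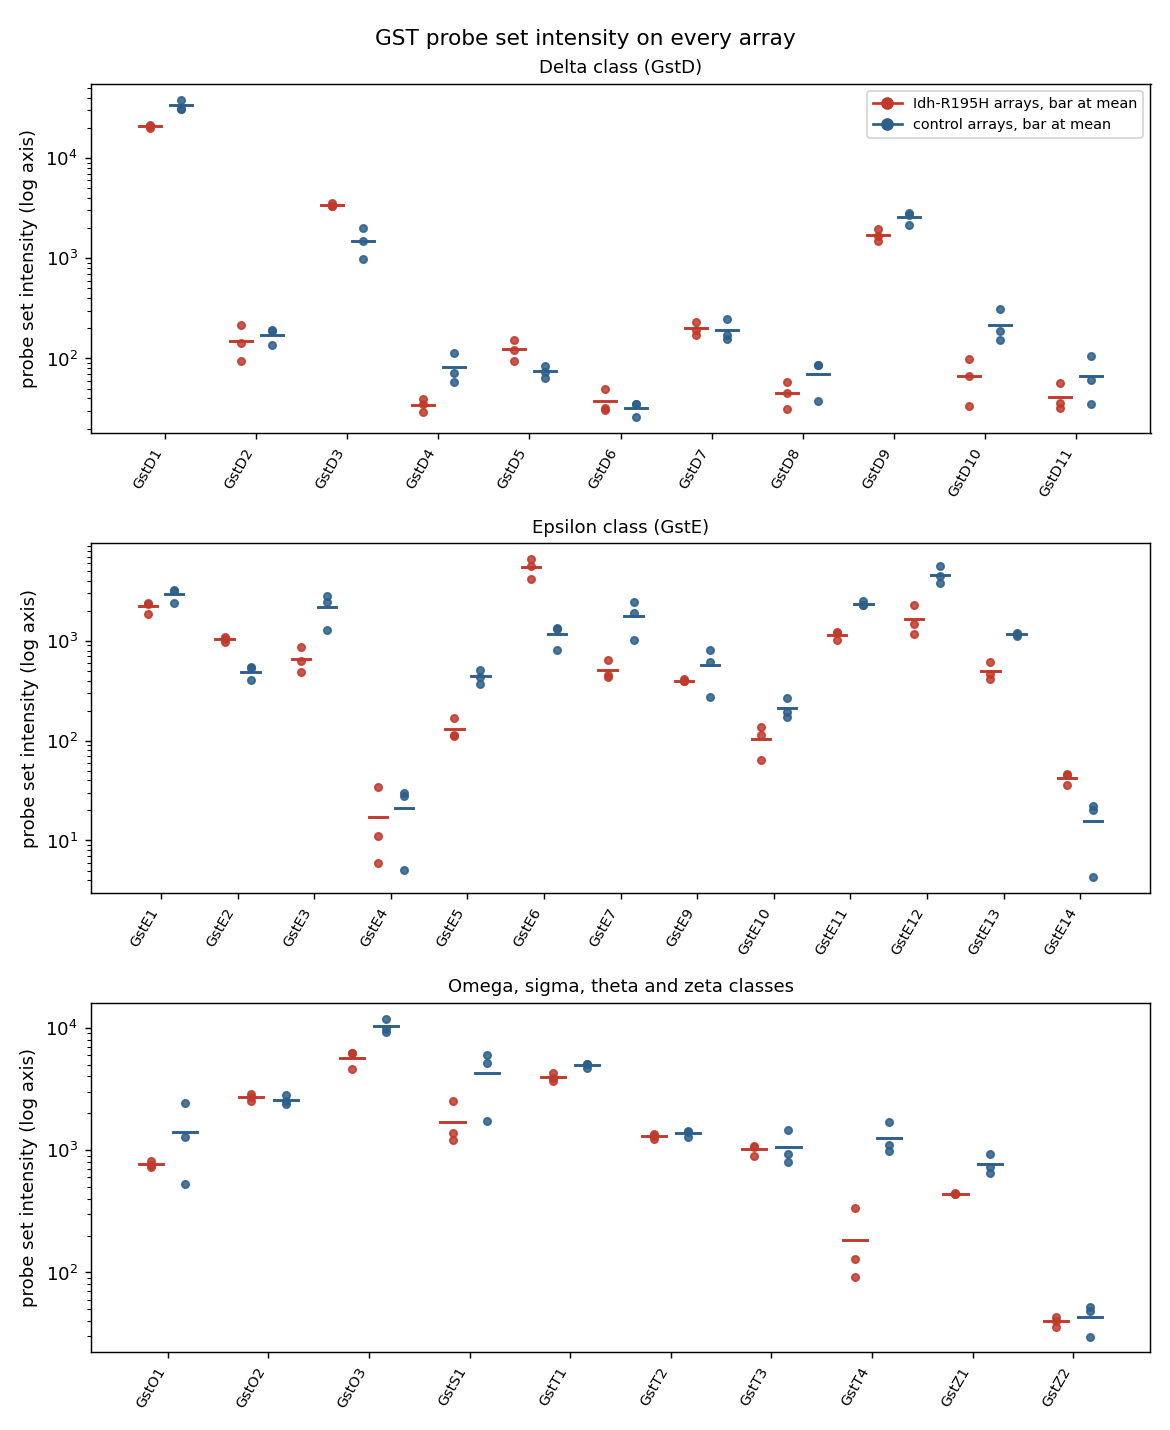
Probe set intensity (vertical, log axis) of each GST gene on the 3 Idh-R195H arrays (red, left) and the 3 control arrays (blue, right), with a bar at each mean; the panels hold the delta class, the epsilon class and the other 4 classes. GstE6 and GstD3 are higher and GstE5 and GstT4 lower on all Idh-R195H arrays, while the control arrays of GstO1 and GstS1 spread by 4.55-fold and 3.46-fold.

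The epsilon class held both the gene that rose and a gene that fell. GstE6 (CG17530) was at intensities of 6584, 5699 and 4198 in Idh-R195H hemocytes, against 1317, 813 and 1362 in control hemocytes. It was 4.76-fold higher, with a log2 fold change of 2.25 ± 0.31 (SE, limma adjusted p = 0.0267), and every Idh-R195H array lay above every control array. The call was kept without control replicate 1 (adjusted p = 0.0394). It was lost without any of the other 5 arrays, where the adjusted p was 0.114, 0.125 and 0.0774 without Idh-R195H replicates 1, 2 and 3 and 0.0801 and 0.0561 without control replicates 2 and 3; the log2 fold change stayed between 2.01 and 2.43.

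GstE5 (CG17527), the neighbouring gene, was at 112, 114 and 169 in Idh-R195H hemocytes, against 436, 513 and 372 in control hemocytes, which was 3.36-fold lower. Its log2 fold change was -1.75 ± 0.26 (SE, adjusted p = 0.0327). Leaving out any array ended the call, with adjusted p of 0.14, 0.147 and 0.0774 without Idh-R195H replicates 1, 2 and 3 and 0.0511, 0.114 and 0.0591 without control replicates 1, 2 and 3. After quantile normalization the adjusted p was 0.0516, after centring on array medians 0.0796, and after scaling on the hybridisation controls the log2 fold change was -0.78 (adjusted p = 0.0737).

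GstE7 had 431, 455 and 638 in Idh-R195H hemocytes, against 1011, 2429 and 1905 in control hemocytes, and a log2 fold change of -1.74 ± 0.39 (SE, limma adjusted p = 0.0836). GstE3 had 488, 631 and 859.6 in Idh-R195H hemocytes, against 1284, 2805 and 2436 in control hemocytes, with a log2 fold change of -1.68 ± 0.39 (SE, limma adjusted p = 0.091). For both genes control replicate 1 was the lowest control array, and without it GstE7 and GstE3 passed the threshold (adjusted p = 0.0336 and 0.042). GstE2 was higher on all Idh-R195H arrays, with a log2 fold change of 1.09 ± 0.22 (SE, limma adjusted p = 0.0612). GstE10, GstE11, GstE12 and GstE13 were lower on all of them, at -1.52 to -1.04 with adjusted p of 0.0515 to 0.188. GstE1, GstE4 and GstE9 overlapped between the genotypes, and GstE4 never exceeded an intensity of 34.5. GstE14, also named nobo and required for ecdysteroid synthesis in the prothoracic gland, was dim, at 36.2 to 46.9 in Idh-R195H hemocytes and 4.33 to 22.2 in control hemocytes, and did not pass (log2 fold change 1.66 ± 0.60 (SE), adjusted p = 0.207). That overlap of GstE9 holds for the brighter of its 2 probe sets, while the dimmer was lower on all Idh-R195H arrays. The dimmer had a log2 fold change of -0.74 (limma adjusted p = 0.28), against -0.37 (adjusted p = 0.706) for the brighter, and neither passed.

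None of the 3 omega genes passed the threshold. GstO3 was at 6268, 4609 and 6207 in Idh-R195H hemocytes, against 11777, 9811 and 9156 in control hemocytes, with no overlap and a log2 fold change of -0.85 ± 0.23 (SE, limma adjusted p = 0.127). GstO2 was close on all arrays, at 2878, 2535 and 2713 in Idh-R195H hemocytes and 2796, 2401 and 2529 in control hemocytes. The 95% interval of its log2 fold change ran from -0.40 to 0.55. Its dimmer probe set had a log2 fold change of -0.13, against 0.07 for the brighter, and both differences lay within their SE. GstO1 was even among the Idh-R195H arrays, at 749.7, 727 and 813, and uneven among the control arrays, at 529, 1282 and 2408. Control replicate 1 lay below and the other control arrays above the Idh-R195H arrays, so that the log2 fold change of -0.63 ± 0.56 (SE, limma adjusted p = 0.61) was smaller than the spread between control arrays.

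The only sigma gene, GstS1, is known for conjugating the lipid peroxidation product 4-hydroxynonenal and for its abundance in flight muscle. GstS1 was uneven in both genotypes, with a spread of 3.46-fold among the control arrays and 2.08-fold among the Idh-R195H arrays. It had 1370.1, 1214 and 2519.8 in Idh-R195H hemocytes, against 1716, 5945 and 5192 in control hemocytes. Control replicate 1 fell inside the Idh-R195H range, and the log2 fold change of -1.22 ± 0.57 (SE) did not pass (adjusted p = 0.307); without that array it was -1.78 (adjusted p = 0.0734). Its probe set is the only one of the members with the name ending that marks probes shared between transcripts of different genes.

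The theta class held the member with the lowest log2 fold change beside 3 genes that did not pass the threshold. GstT4 (CG1681) was at 92.6, 129.7 and 334 in Idh-R195H hemocytes, against 1682, 1097 and 987 in control hemocytes. It was 7.64-fold lower, and its log2 fold change, -2.93 ± 0.53 (SE), had an adjusted p of 0.0499, just below the threshold. Idh-R195H replicate 3 was 3.60-fold above replicate 1 and still below the dimmest control array. Without Idh-R195H replicates 1, 2 and 3 the adjusted p was 0.148, 0.18 and 0.0513, and without control replicates 1, 2 and 3 it was 0.0777, 0.147 and 0.0998. The log2 fold change was -1.97 after scaling on the hybridisation controls (adjusted p = 0.0359) and -2.84 after quantile normalization (adjusted p = 0.0508); centring on array medians gave an adjusted p of 0.0621.

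GstT1 was at 4299, 3850.4 and 3636 in Idh-R195H hemocytes, against 4662, 5089 and 5016 in control hemocytes, with no overlap, but by a log2 fold change of only -0.33 ± 0.19 (SE, adjusted p = 0.414). GstT2 had 1353, 1241 and 1301 in Idh-R195H hemocytes, against 1437, 1284 and 1414 in control hemocytes, and the 95% interval of its log2 fold change ran from -0.54 to 0.37. GstT3 had 1063, 894 and 1083 in Idh-R195H hemocytes, against 1462, 936 and 805 in control hemocytes, with overlap and an interval from -0.74 to 0.68. After scaling on the hybridisation controls, where the median of all probe sets was positive too, GstT2 and GstT3 were at 0.88 and 0.94.

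The zeta genes, which lie next to each other, encode maleylacetoacetate isomerases. GstZ1 was at 438, 435 and 447 in Idh-R195H hemocytes, against 925, 722 and 654 in control hemocytes, without overlap and with a log2 fold change of -0.78 ± 0.22 (SE, limma adjusted p = 0.13). GstZ2 was dim, at 40.4, 43.7 and 35.9 in Idh-R195H hemocytes, against 48.5, 51.9 and 30.0 in control hemocytes, and the groups overlapped (log2 fold change -0.08 ± 0.28 (SE), adjusted p = 0.926).

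Read in the order in which the genes follow each other in the RefSeq gene table, members of 1 run of neighbours went in opposite directions. The table placed all 11 delta genes in a run and 10 epsilon genes, from GstE10 to GstE9, in another, of which GstE8 was not analysed here. Along the epsilon run the log2 fold change was 1.09 for GstE2 and -1.68 for GstE3, and -1.75 for GstE5, 2.25 for GstE6 and -1.74 for GstE7. In the delta run GstD3, at 1.26, lay between GstD2 at -0.27 and GstD4 at -1.17. The log2 ratio of 2 neighbours on the same array is nearly free of the scaling of that array. The ratio of GstE6 to GstE7 was 3.93, 3.64 and 2.72 in Idh-R195H hemocytes, against 0.38, -1.58 and -0.48 in control hemocytes, a difference of 3.99. That of GstE5 to GstE6 was -5.87, -5.63 and -4.63 in Idh-R195H hemocytes, against -1.59, -0.66 and -1.87 in control hemocytes, lower on every Idh-R195H array. The ratio of GstD3 to GstD4 was 6.61, 6.79 and 6.38 in Idh-R195H hemocytes, against 5.07, 3.74 and 3.67 in control hemocytes (difference 2.43). Pairs were formed from members that followed each other among the analysed GST genes of a run. GstE8 thus lay between GstE7 and GstE9, and 1 other gene lay between GstO3 and GstO2, as between GstD8 and GstD11. Of 22 such pairs compared, 12 did not overlap between the genotypes and 10 had log2 fold changes of opposite sign. Taken singly, 58.8% of the members did not overlap. Adjacent pairs share a gene, and no such share was computed for pairs of other probe sets. Whether neighbouring GST genes diverge more often than other pairs was therefore not tested. The exact two-sided permutation p was 0.1 for each of the 12, the smallest that 3 arrays against 3 can give, so none could pass a threshold of 0.05, and the pairs given were chosen after their values were seen. Neighbouring GST genes are similar in sequence, and whether a probe set also binds the transcript of a neighbour was not tested.

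**Figure D3:**
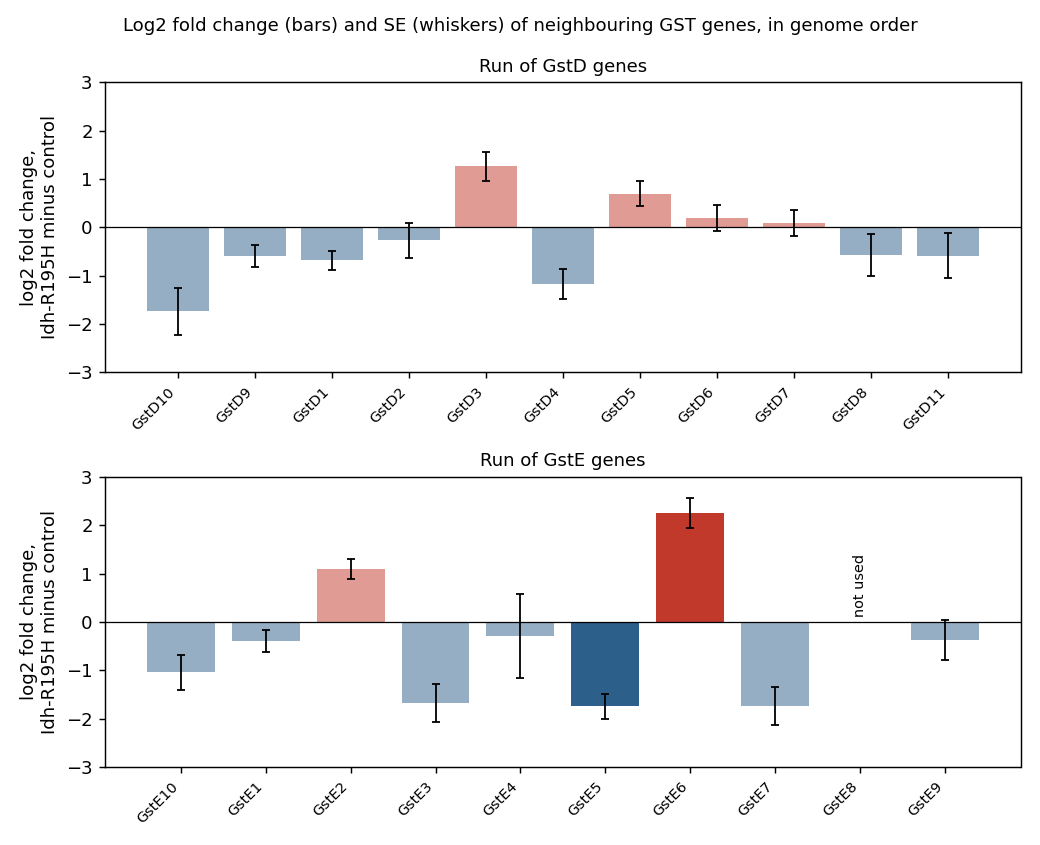
Log2 fold change (bars, Idh-R195H minus control) with limma's SE (whiskers) for the GST genes of the delta run and the epsilon run, in genome order from left to right; red bars are positive, blue bars negative, and full colour marks an adjusted p below 0.05. GstE6 stands at 2.25 between GstE5 at -1.75 and GstE7 at -1.74.

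Set beside each other, the classes had medians of -0.57 (GstD, n = 11), -1.04 (GstE, n = 13), -0.63 (GstO, n = 3), -1.22 (GstS, n = 1), -0.21 (GstT, n = 4) and -0.43 (GstZ, n = 2), all below the -0.11 of all probe sets. No test was run over the members of a class, and the differences between classes are a description. The members of the larger classes went both ways or spread widely: the delta genes spanned -1.74 to 1.26, the epsilon genes -1.75 to 2.25 and the theta genes -2.93 to -0.03. The omega genes spanned -0.85 to 0.07 and the zeta genes -0.78 to -0.08. Centring and scaling on the hybridisation controls moved these medians up together with the median of all probe sets. Quantile normalization did not move them alike. It put the median of all probe sets at 0.0175 and raised the delta, epsilon and zeta medians to -0.10, -0.83 and -0.28. The omega, sigma and theta medians were then slightly lower, at -0.68, -1.28 and -0.24. With arrays centred on their medians, the median of all probe sets was 0.15 and that of the theta class 0.05, while the other classes stayed negative. After scaling on the hybridisation controls the median of all probe sets was 0.835, and the class medians were 0.38, -0.07, 0.34, -0.25, 0.76 and 0.52 for D, E, O, S, T and Z; the direction of the delta, omega, theta and zeta medians thus turned with the scaling, and all 6 lay below the median of all probe sets under this scaling too. Only GstE6 passed the threshold after quantile normalization or centring, where 2.61% and 2.29% of all probe sets were called. After scaling on the hybridisation controls, 11 of the 34 GST genes were called, a share close to that of all probe sets (6327 of 18769, or 33.7%). Without control replicate 1, 4 of the 34 were called, against 870 of 18769 probe sets (4.64%). GstD3, GstD5, GstE2, GstE6 and GstE14 were positive, and GstD4, GstD10, GstE3, GstE5, GstE7, GstE10, GstE11, GstE12, GstE13, GstS1 and GstT4 negative, in every setting that was run on them.

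**Figure D4:**
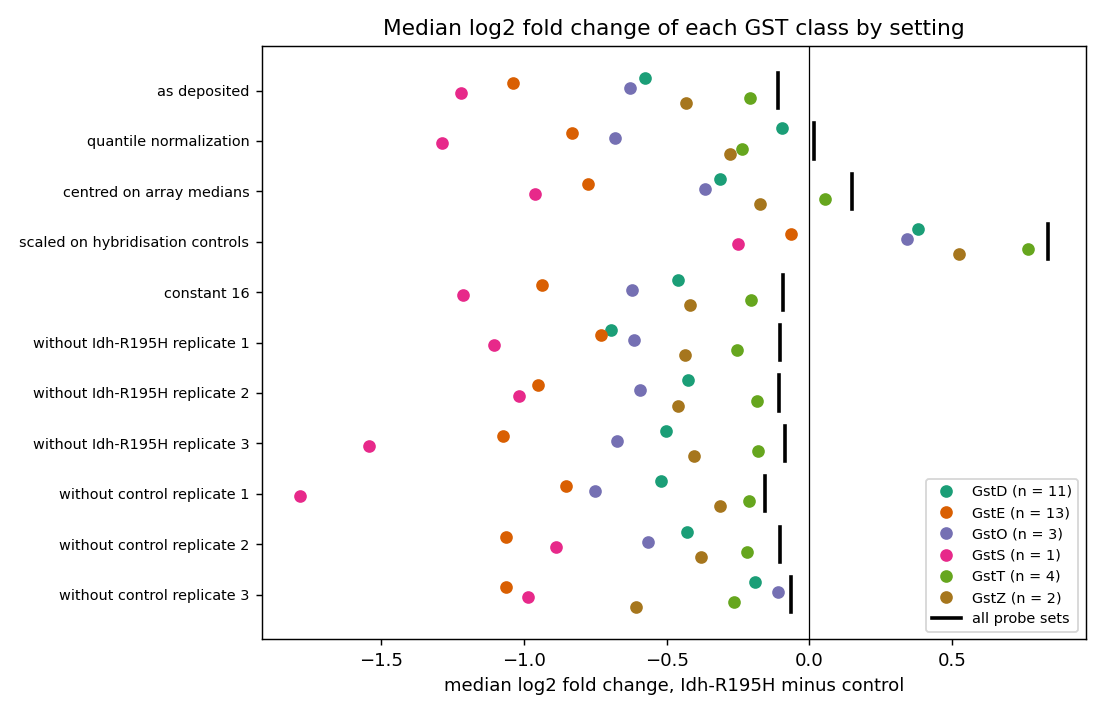
Median log2 fold change (Idh-R195H minus control, horizontal axis) of each GST class (coloured points) and of all probe sets (black bars) with the deposited scaling, with 4 other treatments of the values and without each array in turn. Scaling on the hybridisation controls moves all probe sets to 0.835 and the classes with them, to between -0.25 and 0.76.

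Markers of several cell types also differed between the genotypes, in both directions. Over all probe sets, 56.9% were negative, and 1.9% rose and 1.21% fell at the threshold. The 7 salivary gland markers were all lower, with summed intensities of 1064 to 5149.7 on Idh-R195H arrays, against 23833 on control replicate 1 and 244888 and 250148 on control replicates 2 and 3. The 5 fat body markers measured were all negative, with sums of 6619 to 56263 on Idh-R195H arrays, against 44670.0, 122973 and 101889 on control replicates 1, 2 and 3, and 8 of 9 midgut markers were negative, with sums of 372 to 1558, against 2298, 34469 and 6395. Control replicate 1 thus had the lowest sum of the controls for all 3 tissues. For the 34 GST genes, control replicates 1, 2 and 3 were the lowest control array for 11, 13 and 10 genes. They were the highest for 17, 10 and 7. Lamellocyte markers, for the large flat hemocytes that encapsulate parasites, were higher for 8 of 8 genes (sums of 75931 to 84573 on Idh-R195H arrays, against 6769 to 9772 on control arrays), and 6 of them passed. Plasmatocyte markers summed to 153489.8 to 157362 on Idh-R195H arrays and 156851 to 231983 on control arrays, with 3 of 12 positive, and the 7 crystal cell markers to 31196 to 53664, against 71193 to 73464, with 1 gene that rose and 1 that fell. The 5 prothoracic gland markers summed to 144 to 286 on Idh-R195H arrays and 1319.5 to 1673 on control arrays, where sro, which fell, gave 1254 to 1552 of it. The 3 muscle markers measured, 2 of them negative, summed to 68.1 to 171 on Idh-R195H arrays and 337 to 463 on control arrays. The 2 Malpighian tubule markers measured summed to 4262 to 4991 on Idh-R195H arrays and 387 to 1463 on control arrays. Drip, which rose, gave 4032 to 4733 of it on Idh-R195H arrays and 142 to 733 on control arrays, while ZnT35C had a log2 fold change of -0.91 and did not pass. No marker was listed at 0. The part of these cell types in the GST values was not tested.

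Genes around the GST enzymes also went both ways. Of 13 measured genes of glutathione supply and recycling, 1 rose and none fell at the threshold (median -0.26). Among all probe sets 1.9% rose and 1.21% fell, and the median was -0.11. The gene that rose was Gclc, the catalytic subunit of the enzyme that limits glutathione synthesis, at 1224, 1396 and 1252 in Idh-R195H hemocytes, against 529.8, 529 and 463 in control hemocytes. Its log2 fold change was 1.35 ± 0.19 (SE, adjusted p = 0.0287), and 1 of the 6 leave-one-out fits kept the call (adjusted p from 0.0355 to 0.148); after centring the adjusted p was 0.0505. Gclm, the modifier subunit of the same enzyme, was at 209, 255 and 197 in Idh-R195H hemocytes, against 407, 272 and 235 in control hemocytes. It had a log2 fold change of -0.44 ± 0.28 (SE, limma adjusted p = 0.461) and did not pass. CG17636, of the gamma-glutamyl transferase family, had a log2 fold change of -1.46 ± 0.76 (SE, limma adjusted p = 0.36), resting on control replicate 2. None of cnc and its 2 partners passed; Keap1 was at 139.9, 129 and 142 in Idh-R195H hemocytes, against 589, 269.7 and 254 in control hemocytes (log2 fold change -1.32 ± 0.37 (SE), adjusted p = 0.133), and maf-S, the small Maf partner of cnc, at -0.37 (adjusted p = 0.418).

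Of 6 measured cnc targets outside the GSTs, 2 rose (Gclc and Cyp6a2) and 1 fell (Cyp6a8), with a median of 0.40, where 1.9% of all probe sets rose, 1.21% fell and the median was -0.11. Cyp6a2, a cytochrome P450 known from insecticide resistance, was at 459, 443 and 323 in Idh-R195H hemocytes, against 58.5, 66.2 and 80.2 in control hemocytes, 5.89-fold higher (adjusted p = 0.0103). Its call was kept in 2 of the 6 leave-one-out fits, with adjusted p from 0.0237 to 0.0717. Cyp6a8, a related P450, had 65.5, 80.4 and 88.1 in Idh-R195H hemocytes, against 257, 511 and 327 in control hemocytes, 4.48-fold lower (adjusted p = 0.0306).

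Among 37 P450 genes of the Cyp6, Cyp9, Cyp12 and Cyp28 families, which often act on foreign compounds before GSTs do, 30 were negative and the median was -0.62, where 56.9% of all probe sets were negative. The threshold was passed by 5 of them, against 3.11% of all probe sets. Besides Cyp6a2, Cyp6a20 rose (1.79 ± 0.24, log2 fold change with SE), and besides Cyp6a8, Cyp6a17 (-2.19 ± 0.27) and Cyp9c1 (-1.53 ± 0.25) fell; the lowest, Cyp12a4, was at -2.58 ± 0.54 (SE, adjusted p = 0.07). Of 6 further proteins with a GST fold or GST activity, Clic, a chloride intracellular channel protein, rose to 6363, 6996 and 5564 in Idh-R195H hemocytes, against 2802, 1768 and 1733.5 in control hemocytes (adjusted p = 0.0419). Mgstl, the microsomal GST, fell to 2002, 1841 and 1937, against 4651, 4466 and 3888 in control hemocytes (adjusted p = 0.04). Each of the calls of Clic, Mgstl, Cyp6a8, Cyp6a17, Cyp6a20 and Cyp9c1 was kept in 1 of the 6 leave-one-out fits, with adjusted p of up to 0.186. Scaling ended 3 of these calls. Mgstl was at -0.91 after centring (adjusted p = 0.229) and -0.20 after scaling on the hybridisation controls (adjusted p = 0.451). Cyp9c1 had an adjusted p of 0.0623 after quantile normalization and 0.107 after centring, and was at -0.57 after scaling on the hybridisation controls (adjusted p = 0.159). Clic had an adjusted p of 0.0661 after centring.

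None of 7 exporters of conjugates and drugs passed (median -0.52; Mdr49 at -1.22 and CG9270 at -1.17). Of 4 measured genes of tyrosine breakdown, the pathway of the zeta enzymes, none passed either, and all were dim, with hgo at 1.05 and Faa at -0.36. Of 5 genes of pteridine synthesis, in which the omega-class enzyme sepia acts, none passed; Pu, which encodes GTP cyclohydrolase, was at 184, 431 and 908 in Idh-R195H hemocytes, against 1131.5, 5941 and 2552 in control hemocytes, and ry, xanthine dehydrogenase, had a log2 fold change of -1.94 ± 0.40 (SE, limma adjusted p = 0.067).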

How the data were processed

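RNA from 3 Idh-R195H and 3 control pools of larval hemocytes was labelled with biotin and hybridised to 1-colour Affymetrix arrays, per the labels' protocols. The deposited series-level table holds intensities on a linear scale; the submitters' processing notes name Partek 6.0 without a role, and neither summarisation method nor build was given in the sources used here. Every array had a trimmed mean of 500.0 (2% trimmed per side), so the deposited intensities share a common mean, by a step that is not recorded. No detection calls were used, and the number of arrays limits the precision.

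Of 18952 probe sets, 183 array controls were left out. Symbols came from the platform annotation; all 34 GST genes matched RefSeq's gene table, which served for names and gene order alone. Each gene is represented by its brightest probe set, by the mean of 6 arrays. Values were transformed as log2(value + 1) and compared by limma 3.58.1 (R 4.3.3; group only, empirical Bayes, two-sided, Benjamini-Hochberg over 18769 probe sets, called at an adjusted p below 0.05). On simulated arrays in which 200 of 18769 probe sets differed, 0% of differences of 1 on the log2 scale were recovered, 30.3% at 2 and 59.1% at 3, with 1 false call. In the data 3791 probe sets had an unadjusted limma p below 0.05, so the adjustment worked in another setting. The simulated shares therefore do not give the recovery in the data. Alternatives were quantile normalization, centring, scaling on hybridisation controls, a constant of 16, a filter on a mean under 100, a trend with robust prior, a replicate block and leaving out each array.

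Values on every array are given for called GST genes, the 4 of each class with the largest absolute log2 fold change and the brightest of each class; of the other gene lists, called genes and the 2 with the largest absolute change are named. Hml and GstE14 are named besides for their known roles, and Gclm as the partner subunit of Gclc. Gclm, sro, Drip and ZnT35C were chosen after their values were seen. The members, gene lists and markers were chosen with earlier results of these data known.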

Additional observations from a re-analysis of the deposited data

How the results depend on the processing

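The labels give both genotypes the replicate numbers 1 to 3, but same-numbered arrays did not deviate together (correlations of 0.033, 0.017 and -0.067 across probe sets), and 1 of the 3 Idh-R195H arrays correlated best with its own number. With the replicate block, 0 probe sets and 0 GST genes were called in limma (3088 and 15 at an unadjusted p below 0.05), and Idh had an adjusted p of 0.173 at a log2 fold change of 1.30. The number of called probe sets, of 18769 tested, was 584 with the deposited scaling and 6327 after scaling on the hybridisation controls. With a constant of 16 it was 888, and with an intensity trend and robust prior 1253. The fit without dim probe sets tested 9383 and called 1297. When 1 array was left out, the number called ran from 11 to 870. The number of called GST genes, of 34 tested, was 3 with the deposited scaling. It was 1 after quantile normalization and 1 after centring on array medians (GstE6 in both), and 11 after scaling on the hybridisation controls (10 higher). With a constant of 16 it was 7 and with the trend 12. Without dim probe sets only 26 GST genes were tested, of which 13 were called. Without 1 array the number called ran from 0 to 4. Idh had an adjusted p of 0.0505 after centring (log2 fold change 1.56), and its log2 fold change ran from 1.23 to 1.35 without 1 array, with the call lost for 5 of the 6.

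The medians of the delta class were -0.10 after quantile normalization, -0.31 after centring and 0.38 after scaling on the hybridisation controls. Centring gave -0.37 for the omega, 0.0545 for the theta and -0.17 for the zeta class, and the hybridisation controls gave -0.0659 for the epsilon, 0.34 for the omega, -0.25 for the sigma, 0.76 for the theta and 0.52 for the zeta class. The zeta median was -0.78 without dim members, since 1 gene was left. Leaving out 1 array gave -0.69 to -0.19 for the delta, -1.07 to -0.73 for the epsilon and -0.75 to -0.11 for the omega class.

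Some genes changed sign. After scaling on the hybridisation controls GstD1, GstD2, GstD8, GstD9 and GstD11 were at 0.28, 0.70, 0.38, 0.38 and 0.36, GstE1, GstE4 and GstE9 at 0.57, 0.60 and 0.59, GstO1 and GstO3 at 0.34 and 0.12, GstT1, GstT2 and GstT3 at 0.64, 0.88 and 0.94, GstZ1 and GstZ2 at 0.18 and 0.86, maf-S at 0.60 and Faa at 0.59; of these, GstT2 and GstT3 passed (adjusted p = 0.0172 and 0.0389). Centring put GstT2 at 0.18, GstT3 at 0.23 and GstZ2 at 0.18, quantile normalization put GstZ2 at 0.18, and the dimmer probe set of GstO2 was at -0.13. Without 1 array, GstD2 ran from -0.57 to 0.0288, GstD6 from -0.0155 to 0.31, GstD7 from -0.052 to 0.28, GstE4 from -1.06 to 0.24, GstT3 from -0.21 to 0.22, GstZ2 from -0.32 to 0.062 and Faa from -0.66 to 0.0091. The 8 GST genes under a mean of 100 have no value without dim probe sets, and GstS1 has none without shared probe sets. The cause of these changes was not tested.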
